A study of Homo sapiens with 2 samples.

Results

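The genes described here are the 7 members of a cadherin switch group: the cadherin genes CDH1, CDH2, CDH3, CDH4, CDH11 and CDH13, and CTNNB1. CTNNB1 encodes beta-catenin, the cytoplasmic partner of classical cadherins. The 7 genes were chosen by RefSeq symbol, and each was given a window of its gene span plus 20000 bp either side. They are 7 of the 19974 protein-coding genes on the autosomes and X. Peaks of H4K5ac, histone H4 acetylated at lysine 5, had been mapped by ChIP-seq (chromatin immunoprecipitation and sequencing) in FaDu, an established human head and neck squamous carcinoma line. The hypoxia library came from FaDu cells held in 1% oxygen for 18 h, and the normoxia library from FaDu cells without that exposure. Each condition had 1 library, so no difference between them has a replicate check and no test was possible. The culture protocol mentions METTL4 knockdown without assigning it to a library, and the design text names a different histone mark from the H4K5ac of the sample labels.

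Cadherins are calcium-dependent adhesion receptors. The classical ones bind like cadherins on a neighbouring cell through their extracellular repeats, and their cytoplasmic tails bind beta-catenin, which connects through alpha-catenin to actin. In an epithelial-mesenchymal transition (EMT), cells typically lose E-cadherin (CDH1) and gain N-cadherin (CDH2) or cadherin-11, and Snail, ZEB and Twist factors are known to act on CDH1 through E-box elements. H4K5ac is an acetylation mark of active chromatin, and a peak list records where it was found, not how much of a gene is transcribed. The group is broader than its usual name: CDH13 (T-cadherin) is held to the membrane by a lipid anchor and lacks the cytoplasmic tail of classical cadherins, and CTNNB1 is not a cadherin.

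The hypoxia list held 258195 peaks and the normoxia list 120033, which is 2.15 times as many peaks in hypoxia over the genome. Strong peaks, whose q-value on a −log10 scale (−log10 q below) reached 10 in their own list, numbered 48782 in hypoxia and 29967 in normoxia. The lists were called separately, and the smallest peak width was 215 bp in hypoxia and 245 bp in normoxia. Of 8 keratinocyte and squamous markers, 7 had a peak within 1000 bp of a gene end in both lists, and TP63 had one in hypoxia alone. Of 16 markers of leukocytes, endothelium, fibroblasts and hepatocytes, 6 had one in both lists, 6 in hypoxia alone and 4 in neither. Among all protein-coding genes, 69.3% had such a peak in both lists, 11.7% in hypoxia alone and 17.9% in neither.

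The promoters below include 3 that H4K5ac peaks reached in both lists and 1, in CDH4, that a peak reached in hypoxia alone. They run from 250 bases before to 50 bases after an annotated RefSeq start (GRCh38.p14), 5′ to 3′ along the transcribed strand. Capitals mark E-boxes (CANNTG, the sites of Snail-type and other E-box factors) and hypoxia response element cores (ACGTG or GCGTG, searched on both strands). Of the 7 genes, 3 had entries in the promoter table, and CDH2-AS1 is the antisense transcript that begins beyond the far end of CDH2.
CDH2 main start, minus strand, chr18:28177081-28177380: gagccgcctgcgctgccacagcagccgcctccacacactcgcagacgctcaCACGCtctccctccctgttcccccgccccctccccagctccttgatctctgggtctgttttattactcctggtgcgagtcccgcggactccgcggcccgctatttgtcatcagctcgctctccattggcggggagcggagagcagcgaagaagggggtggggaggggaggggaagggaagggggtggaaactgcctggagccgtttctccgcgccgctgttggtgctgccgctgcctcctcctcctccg
CTNNB1 start, plus strand, chr3:41199255-41199554: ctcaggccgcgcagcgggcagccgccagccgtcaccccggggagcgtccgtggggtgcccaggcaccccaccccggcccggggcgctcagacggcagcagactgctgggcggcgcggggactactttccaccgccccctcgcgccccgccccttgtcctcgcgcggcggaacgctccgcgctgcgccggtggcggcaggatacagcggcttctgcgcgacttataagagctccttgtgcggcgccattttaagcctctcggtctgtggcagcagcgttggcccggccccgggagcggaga
CDH4 internal start, plus strand, chr20:61499171-61499470: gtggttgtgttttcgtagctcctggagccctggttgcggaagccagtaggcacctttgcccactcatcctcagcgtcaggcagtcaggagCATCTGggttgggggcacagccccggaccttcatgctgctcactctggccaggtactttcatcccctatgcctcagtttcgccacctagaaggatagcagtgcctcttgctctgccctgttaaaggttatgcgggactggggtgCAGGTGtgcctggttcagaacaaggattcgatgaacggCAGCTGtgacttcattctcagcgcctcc
CDH2-AS1 start, plus strand, chr18:27921344-27921643: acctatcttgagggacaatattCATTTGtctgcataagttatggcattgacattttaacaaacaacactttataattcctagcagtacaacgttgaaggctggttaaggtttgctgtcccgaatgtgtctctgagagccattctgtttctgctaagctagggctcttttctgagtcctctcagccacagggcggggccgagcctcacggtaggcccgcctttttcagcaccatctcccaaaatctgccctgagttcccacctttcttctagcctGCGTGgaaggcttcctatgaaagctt

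The CDH2 promoter lay inside a peak over all 300 bases in both lists. It held no E-box and 1 hypoxia response element core, which reads CACGC on the printed strand and begins 199 bases before the start. The CTNNB1 promoter was covered over 297 bases in hypoxia and 300 in normoxia. It held neither motif, and it was the most CpG-rich of the 4, with 39 CpG and 74.0% G and C, against medians of 14 and 58.7% over 35116 listed promoters. The internal CDH4 promoter was covered over 246 bases by a hypoxia peak, which ended 5 bp before the start itself, and the nearest normoxia peak lay 62150 bp from its start. It held 3 E-boxes, 1 of them of the Snail-preferred form CAGGTG or CACCTG, 16 bases before the start. The CDH2-AS1 promoter was covered over 205 bases in hypoxia and 186 in normoxia. An E-box is present in 68.7% of the listed promoters, the Snail-preferred form in 20.6% and a hypoxia response element core in 48.4%, so a match is a description of the letters and not a bound site.

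H4K5ac peaks lay at the gene start, within 1000 bp of it, in both lists for 6 of the 7 genes and in neither list for CDH4. Over all protein-coding genes, 69.3% had a peak within 1000 bp of either gene end in both lists, 11.7% in hypoxia alone and 17.9% in neither. Counting either gene end is a wider rule than counting the start. By that wider rule the 7 genes gave the same counts, 6 in both lists and 1, CDH4, in neither. They are thus read against a background where most genes are marked in both. Transcription direction came from the promoter table for CDH2, CDH4 and CTNNB1 and from general knowledge of the genes for the other 4, and exons, introns and UTRs were not distinguished.

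CDH1, the E-cadherin gene (gene ID 999; chromosome 16, 68737292 to 68835537, plus strand), had 1 peak at its start in each list. The hypoxia peak was 1217 bp wide with 151 reads over its summit, a fold of 7.08 over its local background and −log10 q of 73.3. The normoxia peak was 1259 bp wide with 73 reads, a fold of 3.89 and −log10 q of 19.6. Both began just inside the gene and ended within 100 bp of each other, but the summit lay 239 bp into the gene in hypoxia and 895 bp in normoxia. Folds and q-values are the authors' values relative to each library's own background, and reads over a summit were derived from them, so they are set side by side and no change is read from them.

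CDH3, the P-cadherin gene of basal epithelia (gene ID 1001; chromosome 16, 68645310 to 68733771, plus strand), ends 3520 bp before CDH1 begins. A pair of peaks flanked its start in each list, with a gap between them just upstream of the start. The peak over the start was 1342 bp wide with a fold of 5.25 in hypoxia, and 1362 bp wide with a fold of 4.03 in normoxia. The upstream peak was 668 bp wide with a fold of 2.79 in hypoxia, and 716 bp wide with a fold of 2.65 in normoxia. Summits of the peak over the start lay 151 bp into the gene in hypoxia and 226 bp in normoxia. The long non-coding RNA gene CDH3-AS1 (68644248 to 68646201) overlaps both peaks, so the mark there cannot be assigned to 1 transcript.

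CDH2, the N-cadherin gene of neural and mesenchymal cells (gene ID 1000; chromosome 18, 27932879 to 28177130, minus strand), had a broad start peak in both lists. It was 1861 bp wide in hypoxia, with a fold of 6.91 and 90 reads over its summit. In normoxia it was 2074 bp wide, the widest normoxia peak of the 7 windows, with a fold of 4.59 and 47 reads. Both summits lay upstream, at 400 bp before the start in hypoxia and 300 bp in normoxia. A second, narrower peak followed inside the gene in both lists, 542 bp wide in hypoxia and 320 bp in normoxia.

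CDH11, the mesenchymal cadherin-11 gene (gene ID 1009; chromosome 16, 64943753 to 65123744, minus strand), had a start peak 2105 bp wide in hypoxia and 1855 bp wide in normoxia. The fold was 5.28 in hypoxia and 4.10 in normoxia. As at CDH1, the hypoxia summit lay nearer the start, 138 bp into the gene, against 762 bp in normoxia. The hypoxia start peak also reached over a second normoxia peak of 245 bp, so 1 hypoxia peak faced 2 normoxia peaks.

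CDH13, the T-cadherin gene (gene ID 1012; chromosome 16, 82626969 to 83800640, plus strand), had the start peak with the most reads over its summit, 283 in hypoxia and 145 in normoxia. It was 1674 bp wide in hypoxia, with a fold of 7.64 and −log10 q of 144, and 1818 bp wide in normoxia, with a fold of 4.56 and −log10 q of 46.3. Summits lay 866 bp into the gene in hypoxia and 748 bp in normoxia. The hypoxia peak began nearer the start, and with a window of 200 bp in place of 1000 bp a start peak was counted in 6 genes in hypoxia and in 5 in normoxia, where CDH13 no longer had one.

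CTNNB1, the beta-catenin gene (gene ID 1499; chromosome 3, 41199505 to 41240443, plus strand), had the start peak with the highest fold of the 7 genes in each list. In hypoxia its start carried 2 peaks separated by a few bases, 712 and 724 bp wide, with folds of 7.54 and 11.9. In normoxia the same stretch was 1 peak, 1438 bp wide, with a fold of 8.98. The 2 forms cover nearly the same bases, and they differ in where the peak caller ended a peak. The summit over the start lay 135 bp into the gene in hypoxia and 174 bp in normoxia.

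CDH4, the R-cadherin gene of retina and brain (gene ID 1002; chromosome 20, 61252261 to 61940617, plus strand), had no start peak within 1000 bp in either list. In hypoxia, 2 peaks lay just inside the gene. Their summits were 1587 bp and 2262 bp from the start, with folds of 2.63 and 5.53 and −log10 q of 2.66 and 15.6. The second was strong, and its nearest normoxia peak lay 40953 bp away. With a window of 5000 bp a start peak was thus counted in 7 genes in hypoxia and 6 in normoxia. The hypoxia peak before the start of the internal CDH4 promoter printed above was 433 bp wide and weak, with a fold of 2.94 and −log10 q of 2.97. A second internal CDH4 promoter in the RefSeq table, with its start at 61599761, had no peak in either list. The nearest lay 4991 bp from that start in hypoxia and 162490 bp in normoxia. It held 1 E-box and 3 hypoxia response element cores.

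**Figure D1:**
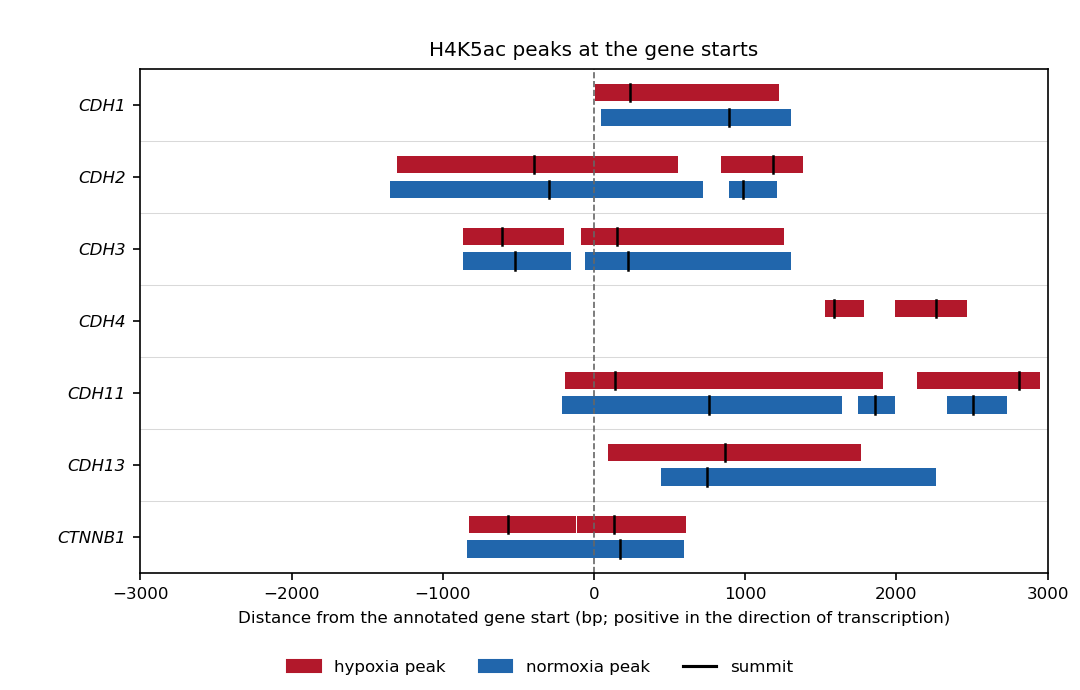
H4K5ac peaks within 3000 bp of the annotated start of each of the 7 genes, drawn to scale along the direction of transcription, with hypoxia peaks above normoxia peaks and summits as black ticks. The 6 genes other than CDH4 have peaks over nearly the same stretch in both lists, CTNNB1 has 2 hypoxia peaks where normoxia has 1, and CDH4 has hypoxia peaks 1587 and 2262 bp into the gene and no normoxia peak.

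Over the 7 windows, with peaks shared by the CDH1 and CDH3 windows counted once, 319 hypoxia peaks faced 113 normoxia peaks. The ratio was 2.82 (95% exact counting interval 2.27 to 3.53), against 2.06 (2.04 to 2.08) in the windows of the other protein-coding genes. In the windows of other genes with a span of at least 500000 bp it was 2.43 (2.37 to 2.50), inside the interval of the 7 windows. CDH4 and CDH13 held 237 of the hypoxia and 59 of the normoxia peaks. Without these 2 genes the ratio was 1.52 (1.06 to 2.18), with 82 hypoxia and 54 normoxia peaks. The direction depended on list length. When the hypoxia list was limited to its 120033 strongest peaks, the ratio in the windows was 0.929 (0.706 to 1.22). That limit makes peak numbers equal over the genome by construction, so a fall towards equal numbers was set in advance. Peaks are not replicates, and these intervals cover counting error only.

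The 7 genes differed in how far the hypoxia list exceeded the normoxia list. CDH4 had 91 hypoxia and 16 normoxia peaks (ratio 5.69, interval 3.32 to 10.4), and CDH13 had 146 hypoxia and 43 normoxia peaks (3.40, 2.40 to 4.89). CDH1 had 24 hypoxia and 14 normoxia peaks (1.71, 0.852 to 3.58), and CDH11 had 21 hypoxia and 12 normoxia peaks (1.75, 0.822 to 3.90). CDH3 had 21 hypoxia and 17 normoxia peaks (1.24, 0.621 to 2.49). CTNNB1 had 7 hypoxia and 2 normoxia peaks (3.50, 0.666 to 34.5), too few to place. CDH2 had 12 hypoxia and 13 normoxia peaks (0.923, 0.385 to 2.19) and was the 1 gene of the 7 with fewer peaks in hypoxia. The intervals of CDH1, CDH2, CDH3, CDH11 and CTNNB1 include both equal numbers and the ratio of 2.15 over the genome. Those of CDH4 and CDH13 lie above both. The CDH13 interval includes the 2.43 found in the windows of other genes with a span of at least 500000 bp, and the CDH4 interval lies above it.

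Against other genes, the CDH4 and CDH2 counts lay near opposite ends. Of 18271 protein-coding windows with at least 1 normoxia peak, 47.7% held at least 2 times as many hypoxia as normoxia peaks, as did 3 of the 7 genes (CDH4, CDH13 and CTNNB1). A ratio of at least 5 was found in 5.28% of these windows, among them CDH4. Fewer hypoxia than normoxia peaks were found in 4.78% of these windows, among them CDH2. Of 3480 windows with at least 10 normoxia peaks, 34.0% reached 2 times, 0.575% reached 5 times and 5.09% held fewer in hypoxia. CDH13 passed the first of these limits, CDH4 passed the first and the second, and CDH2 met the last. The median ratio was 1.75 over the 7 genes, 1.85 over windows with at least 1 normoxia peak and 1.68 over those with at least 10. CDH4 and CDH13 are long genes, and ratios were higher in long genes. Of 214 genes with a span of at least 500000 bp and at least 10 normoxia peaks, the median ratio was 2.30, 64.0% reached 2 times and 2.80% reached 5 times. The upper quartile of these long genes was 3.02, below the 3.40 of CDH13 and the 5.69 of CDH4.

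**Figure D2:**
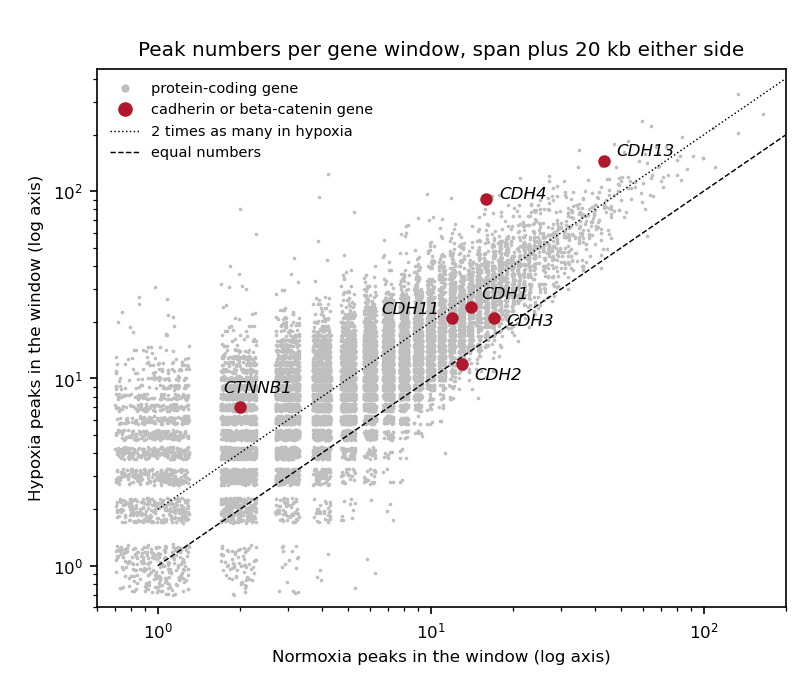
Number of hypoxia peaks against number of normoxia peaks in the window of each protein-coding gene with a peak in both lists, on log axes with points spread slightly to show ties. CDH4 (91 hypoxia and 16 normoxia peaks) and CDH13 (146 hypoxia and 43 normoxia) lie above the dotted line of 2 times as many in hypoxia, CTNNB1 (7 hypoxia and 2 normoxia) too, and CDH2 (12 hypoxia and 13 normoxia) lies just under the dashed line of equal numbers.

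**Figure D3:**
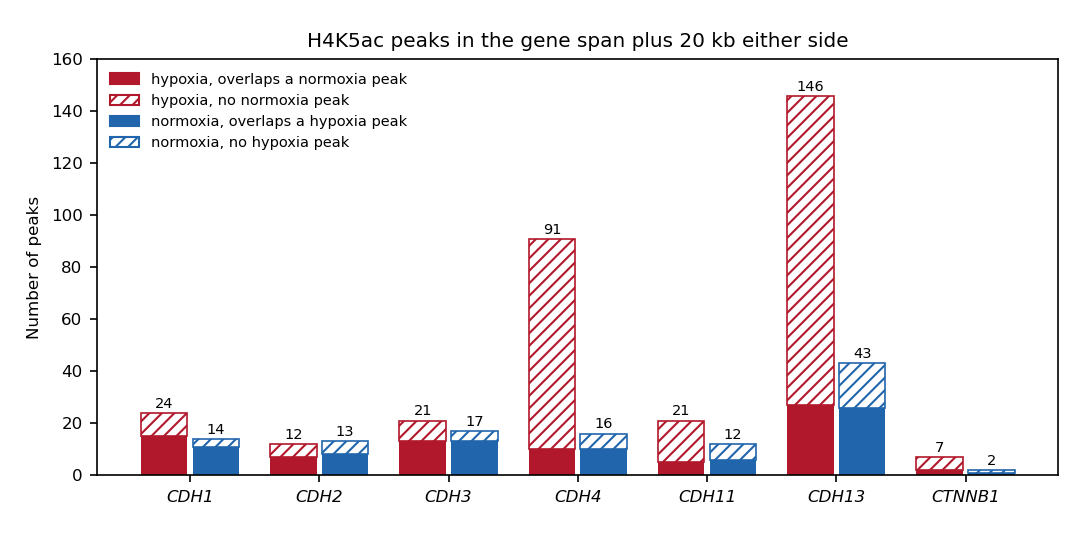
Number of H4K5ac peaks in each window, hypoxia left and normoxia right for each gene, split into peaks that overlap a peak of the other list by at least 1 bp (filled) and those that do not (hatched). CDH4 and CDH13 have 81 and 119 hypoxia peaks with no normoxia peak, whereas their overlapping peaks number 10 in hypoxia and 10 in normoxia for CDH4, and 27 in hypoxia and 26 in normoxia for CDH13.

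At the epithelial pair CDH1 and CDH3, most peaks of each list overlapped a peak of the other. In the CDH1 window 15 of 24 hypoxia peaks (62.5%) overlapped a normoxia peak, and 11 of 14 normoxia peaks (78.6%) overlapped a hypoxia peak. In the CDH3 window the numbers were 13 of 21 hypoxia peaks (61.9%) and 13 of 17 normoxia peaks (76.5%). At CDH2 they were 7 of 12 hypoxia peaks (58.3%) and 8 of 13 normoxia peaks (61.5%). At CDH11 they were 5 of 21 hypoxia peaks (23.8%) and 6 of 12 normoxia peaks (50%). At CDH13 they were 27 of 146 hypoxia peaks (18.5%) and 26 of 43 normoxia peaks (60.5%). At CDH4 they were 10 of 91 hypoxia peaks (10.99%) and 10 of 16 normoxia peaks (62.5%). The shares of normoxia peaks thus lay between 50% and 78.6% at these 6 genes, whereas the shares of hypoxia peaks lay between 10.99% and 62.5%. At CTNNB1, 2 of 7 hypoxia and 1 of 2 normoxia peaks overlapped.

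Pooled, 76 of the 319 hypoxia peaks (23.8%, 95% exact binomial interval 19.3 to 28.9%) overlapped a normoxia peak, against 35.3% in the windows of other genes and 25.3% in those of other genes with a span of at least 500000 bp. Of the 113 normoxia peaks, 72 (63.7%, 54.1 to 72.6%) overlapped a hypoxia peak, against 71.0% and 60.6% in the same sets. Without CDH4 and CDH13 the hypoxia share was 47.6% (36.4 to 58.9%) and the normoxia share 66.7% (52.5 to 78.9%).

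Few single-list hypoxia peaks were strong, in the 7 windows as over the genome. Of the 243 hypoxia peaks without a normoxia peak, 232 (95.5%) had a −log10 q under 10, against 96.2% of the 173761 such peaks over the genome. Their median −log10 q was 3.66, against 9.73 for the 76 that overlapped. At CDH4, 72 of 81 such peaks (88.9%) had a −log10 q under 5, and at CDH13 94 of 119 (79.0%), against 68.6% over the genome. CDH1 had 10 strong peaks in hypoxia and 6 in normoxia, as did CDH3. CDH2 had 5 in hypoxia and 3 in normoxia. CDH4 had 3 in hypoxia and 2 in normoxia. CDH11 had 4 in hypoxia and 1 in normoxia, CDH13 had 16 in hypoxia and 8 in normoxia, and CTNNB1 had 2 in hypoxia and 1 in normoxia. Of the 47 strong hypoxia peaks in all, 36 (76.6%) overlapped a normoxia peak of any strength, against 86.6% of strong hypoxia peaks over the genome. Of the 26 strong normoxia peaks, 24 (92.3%) overlapped a hypoxia peak, against 98.3% over the genome.

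With the hypoxia list limited to the length of the normoxia list, CDH4 had 16 peaks in each list and CDH13 had 42 in hypoxia and 43 in normoxia. CDH1 then had 15 in hypoxia and 14 in normoxia, and CDH3 had 14 in hypoxia and 17 in normoxia. CDH11 had 12 in each list and CTNNB1 had 2 in each. CDH2 had 7 in hypoxia and 13 in normoxia. CDH2 thus had the lowest ratio of the 7 genes both with the full lists and at equal length, whereas CDH4 had the highest ratio with the full lists but not at equal length. The direction at CDH2 was not stable to other settings, since it had 5 strong peaks in hypoxia and 3 in normoxia, 10 in each list after peaks within 1000 bp were merged, and 16 in hypoxia and 15 in normoxia with a flank of 50000 bp.

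The hypoxia peaks of CDH4 were spread along the gene rather than gathered at 1 site. With the span divided into 4 equal stretches, from the start, they numbered 25, 21, 22 and 21 in hypoxia, and 3, 2, 0 and 9 in normoxia. In CDH13 the 4 stretches held 29, 38, 36 and 34 hypoxia peaks, and 12, 8, 7 and 11 normoxia peaks. The density in the CDH4 window was 12.5 peaks per 100 kb in hypoxia and 2.20 in normoxia, and in the CDH13 window 12.03 in hypoxia and 3.54 in normoxia. CDH2, with 4.22 peaks per 100 kb in hypoxia and 4.57 in normoxia, had the lowest hypoxia density of the 7 genes. CDH1, with 17.4 in hypoxia and 10.1 in normoxia, and CDH3, with 16.3 in hypoxia and 13.2 in normoxia, had the highest in both lists.

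**Figure D4:**
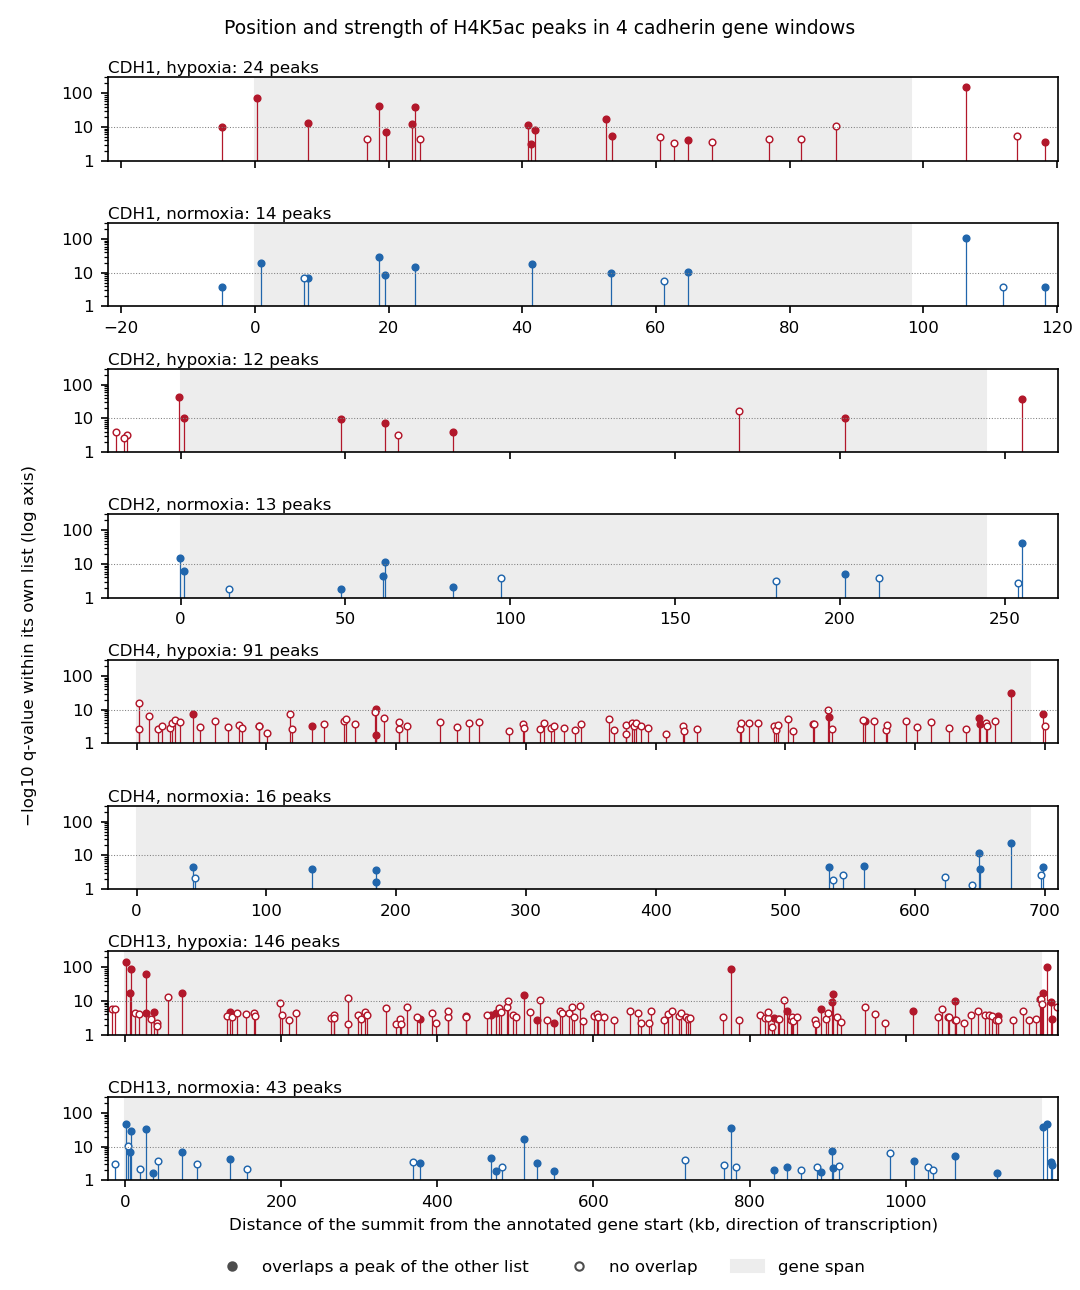
Summit position and −log10 q, on a log axis, of each peak in the windows of CDH1, CDH2, CDH4 and CDH13, with hypoxia above normoxia for each gene and the gene span shaded. The dotted line marks −log10 q of 10. In CDH4 and CDH13 the open hypoxia symbols, which overlap no normoxia peak, run along the whole gene and lie mostly under that line, whereas the tallest peaks are filled in both lists.

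The strongest peak in the CDH1 window was not at the CDH1 start. It lay 106464 bp from it in hypoxia (fold 11.6, −log10 q 156, 230 reads) and 106491 bp in normoxia (fold 9.37, −log10 q 109, 184 reads). This is past the end of CDH1 and at the near end of the neighbouring gene TANGO6 (chromosome 16, 68843531 to 69085182). Inside CDH1, the highest −log10 q after the start peak in hypoxia was at 18.6 kb and 23.9 kb from the start. The first had folds of 5.84 in hypoxia and 4.50 in normoxia. The second had 5.74 in hypoxia and 3.55 in normoxia. At the second site 2 hypoxia peaks lay under 1 normoxia peak of 894 bp. A normoxia peak of 1384 bp at 41.5 kb likewise overlapped 3 hypoxia peaks, and one of 1169 bp at 53.3 kb overlapped 2. The 1 strong hypoxia peak of CDH1 without a normoxia peak lay 86942 bp from the start (68824064 to 68824422), with a fold of 4.72 and −log10 q of 10.8, and the nearest normoxia peak was 18994 bp away.

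In the CDH3 window, which holds 3 hypoxia and 4 normoxia peaks that also lie in the CDH1 window, the strongest hypoxia peak was that at the CDH1 start. The strongest normoxia peak was the one over the CDH3 start. The strongest hypoxia peak within CDH3 other than at its start lay 21.1 kb from it, 797 bp wide with a fold of 5.45 and −log10 q of 41.3. Its normoxia counterpart was 744 bp wide with a fold of 2.28 and −log10 q of 5.68. The only strong single-list peak of CDH3 was in normoxia (68667951 to 68668329, fold 2.95, −log10 q 12.1), 1300 bp from the nearest hypoxia peak. The local background behind these peaks was high, with a median of 18.6 reads in hypoxia and 19.0 in normoxia, against medians over the whole lists of 4.17 in hypoxia and 5.07 in normoxia. At CDH1 it was 11.1 in hypoxia and 13.6 in normoxia, and at CDH2 it was 3.24 in hypoxia and 3.45 in normoxia. The 3.24 at CDH2, also the hypoxia median at CDH11, was the smallest background of any peak in the hypoxia list. The smallest in the normoxia list was 3.13. A fold at CDH2 is thus taken over a lower base than one at CDH3, and the part of the local background in these differences was not tested.

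In the CDH2 window a site beyond the gene's far end, about 255.2 kb from the CDH2 start, was second to the start peak in hypoxia and the strongest in normoxia. It was 1208 bp wide with a fold of 9.61 and −log10 q of 38.1 in hypoxia, and 1315 bp wide with a fold of 8.87 and −log10 q of 41.6 in normoxia. Both peaks lie at the start of CDH2-AS1 (chromosome 18, 27921594 to 27963692), whose promoter is printed above. CDH2 had 1 strong hypoxia peak without a normoxia peak, at 169235 bp from the start (28007752 to 28008023). It had a fold of 7.31, −log10 q of 16.98 and 30 reads over a background of 3.24, the smallest in the hypoxia list. The nearest normoxia peak lay 11015 bp away. The other internal CDH2 promoter in the RefSeq table, with its start at 28036641, had no peak in either list, and the nearest lay 28618 bp away in hypoxia and 39904 bp in normoxia.

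In CDH11 the start peak was the strongest in both lists. Its 2 strong single-list hypoxia peaks lay deep in the gene. The first, at 118955 bp from the start (65004582 to 65005149), had a fold of 7.07 and −log10 q of 16.02, and the nearest normoxia peak was 12722 bp away. The second, at 172843 bp (64950641 to 64951086), had a fold of 5.30 and −log10 q of 11.6, with a normoxia peak 2678 bp away. Of 16 hypoxia peaks without a normoxia peak in this window, 10 lay over 5000 bp from the nearest one. The window held 12 normoxia peaks, and the same share was not computed over other genes.

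In CDH4 the strongest peak of both lists lay far from the start, 673550 bp in hypoxia and 673496 bp in normoxia. It was 1501 bp wide with a fold of 5.02 and −log10 q of 32.1 in hypoxia, and 1347 bp wide with a fold of 5.47 and −log10 q of 23.4 in normoxia. Of the 81 CDH4 hypoxia peaks without a normoxia peak, 72 lay over 5000 bp from the nearest one. The window held 16 normoxia peaks, and this share was not computed over other genes, so it is not read as a trait of CDH4. The peak near the start, at 61254252 to 61254725, was the 1 strong one among the 81.

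In CDH13 the strongest hypoxia peak was the start peak, whereas the strongest normoxia peak lay past the gene's end at the near end of HSBP1 (chromosome 16, 83807978 to 83819737). That site had a fold of 9.63 and −log10 q of 104 in hypoxia, and a fold of 6.77 and −log10 q of 48.4 in normoxia. The highest fold in the window was at an internal site 776.6 kb from the start, at 13.7 in hypoxia and 7.98 in normoxia, where the 2 summits were 5 bp apart. The 3 strongest single-list hypoxia peaks lay 54855, 284970 and 1172274 bp from the start. Their folds were 6.13, 5.75 and 4.11, and their −log10 q were 13.1, 12.3 and 11.9. The nearest normoxia peaks were 12605, 83741 and 2965 bp away. The strong single-list normoxia peak of CDH13 lay 3217 bp from the start, with a fold of 2.32, −log10 q of 10.8 and a background of 40.8 reads, and a hypoxia peak lay 1275 bp away.

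In CTNNB1 there was no strong peak outside the start in either list. The other 5 hypoxia peaks had −log10 q of at most 4.85, and 4 of them lay past the gene's far end. The 1 other normoxia peak lay 15639 bp into the gene with −log10 q of 4.53.

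Peaks that overlapped the other list were wider than those that did not, in both lists. Overlap was counted from 1 bp, so a wider peak meets another more easily by construction, and no trait of these genes is read from this. The median width over the 7 windows was 285 bp in hypoxia (95% interval 269 to 300 bp) and 359 bp in normoxia (326 to 397 bp). Over the whole lists it was 294 bp in hypoxia and 356 bp in normoxia. In the 7 windows, peaks that overlapped the other list had medians of 419.5 bp in hypoxia and 403 bp in normoxia. Those that did not had 260 bp in hypoxia and 289 bp in normoxia. Among 60 pairs in which 1 hypoxia peak overlapped 1 normoxia peak, 29 were wider in hypoxia and 30 narrower. Their summits were a median of 101.5 bp apart, and the largest distance, 656 bp, was at the CDH1 start. A further 6 normoxia peaks overlapped 2 or more hypoxia peaks, and 3 hypoxia peaks overlapped 2 normoxia peaks. The 47 strong hypoxia peaks had a median width of 542 bp and the 26 strong normoxia peaks 1025 bp. Over the genome strong peaks were also narrower in hypoxia, with medians of 619 bp in hypoxia and 819 bp in normoxia.

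Counted in bases rather than peaks, where gaps between split peaks drop out, peaks covered 6.94% of the CDH1 window in hypoxia and 6.69% in normoxia, and 2.38% of the CDH2 window in hypoxia and 2.49% in normoxia. In the CDH4 window they covered 4.04% in hypoxia and 0.868% in normoxia. In the CDH13 window they covered 4.01% in hypoxia and 1.70% in normoxia. At CDH3 the values were 9.01% in hypoxia and 8.13% in normoxia, and at CDH11 4.20% in hypoxia and 2.45% in normoxia. At CTNNB1 they were 3.71% in hypoxia and 2.30% in normoxia. Over the genome, peaks covered 99.9 Mb in hypoxia and 59.2 Mb in normoxia. Bases shared by both lists made up 64.0% of hypoxia and 66.4% of normoxia coverage at CDH1, and 72.1% of hypoxia and 68.8% of normoxia coverage at CDH2. At CDH4 they made up 13.6% of hypoxia and 63.2% of normoxia coverage. For CDH13 these shares were 21.7% of hypoxia and 51.2% of normoxia coverage, and for CDH11 33.7% of hypoxia and 57.7% of normoxia coverage. For CDH3 they were 68.6% of hypoxia and 76.0% of normoxia coverage, and for CTNNB1 47.3% of hypoxia and 76.5% of normoxia coverage.

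The same counts were made for 30 other cadherin and adherens junction genes. Of 17 other cadherin genes, 6 had a gene-end peak in both lists, 6 in hypoxia alone, 0 in normoxia alone and 5 in neither. Over all protein-coding genes the shares were 69.3% in both lists, 11.7% in hypoxia alone and 17.9% in neither. The 6 marked in hypoxia alone were the type II cadherin genes CDH20 (−log10 q 16.02), CDH8 (9.55) and CDH7 (3.86), the endothelial VE-cadherin gene CDH5 (5.72), the kidney cadherin gene CDH16 (5.22) and the liver-intestine cadherin gene CDH17 (2.70). The CDH20 peak alone among them was strong. Of 13 catenin, nectin and linker genes, 12 were marked in both lists and 1, the neuronal alpha-catenin gene CTNNA2, in neither. The gene-end peaks with the highest −log10 q in hypoxia were those of the alpha-catenin gene CTNNA1 (−log10 q 117 in hypoxia and 61.8 in normoxia), the plakoglobin gene JUP (98.2 in hypoxia and 50.5 in normoxia), the alpha-catulin gene CTNNAL1 (91.5 in hypoxia and 72.6 in normoxia) and the vinculin gene VCL (79.8 in hypoxia and 48.9 in normoxia).

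Of 27 of these 30 genes with at least 1 normoxia peak in the window, 15 (55.6%) held at least 2 times as many hypoxia peaks, against the 47.7% of all such windows, and none held fewer. The median ratio was 2.11. Among genes with fewer than 10 normoxia peaks, CDH15 (8 hypoxia peaks and 1 normoxia peak, ratio 8), CDH10 (18 hypoxia and 3 normoxia, ratio 6) and CDH22 (29 hypoxia and 5 normoxia, ratio 5.80) also exceeded the 5.69 of CDH4. These 3 genes were picked out after their values were seen. Of the 5 listed genes with a span of at least 500000 bp, chosen by span after their values were seen, CDH12 had 91 hypoxia and 54 normoxia peaks and CDH18 had 105 hypoxia and 56 normoxia peaks. These cadherin genes on chromosome 5 are close to CDH13 in length, and their ratios of 1.69 and 1.88 were below its 3.40. CTNND2, the delta-2 catenin gene, had 173 hypoxia and 67 normoxia peaks, a ratio of 2.58, and the alpha-T-catenin gene CTNNA3 had 79 hypoxia and 27 normoxia peaks, a ratio of 2.93. CTNNA2 had 36 hypoxia and 3 normoxia peaks, a ratio of 12, above those of CDH13 and CDH4. With 3 normoxia peaks it is not among the 214 long genes above.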

How the data were processed

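H4K5ac ChIP-seq was deposited as 1 peak list for each of the 2 FaDu libraries (per the labels' protocols, from single-end reads of 75 bp). Per the submitters' processing notes, coordinates follow hg38, and MACS2 and SICER were used. Their roles, versions, settings and any control were not given in the sources used here. The authors' deposited columns give each peak a fold (a ratio over local background), −log10 p- and q-values, an integer score and a summit. Read totals are not stated.

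Reads over a summit and local background were solved from the deposited fold and −log10 p-value, taking the fold as (reads + 1) / (background + 1) and p as a Poisson tail. They came out whole within 0.02 for 99.998% of hypoxia and 100% of normoxia peaks. Gene spans and promoters were RefSeq (GRCh38.p14). Overlap meant at least 1 bp. Shares carry 95% Clopper-Pearson intervals and ratios the binomial equivalent, both for counting error only. Computation used Python 3.11.15, pandas 2.3.3 and SciPy 1.17.1, and the overlap and solving steps were tested on simulated data. Named genes and peaks followed a rule: all 7 members, the start peaks, the strongest peak of each list, up to 3 strong single-list peaks per direction, and list genes ranked by −log10 q. Peaks described beyond these were chosen after their values were seen. Members and lists were chosen with earlier results of these data known. Alternatives changed flank, threshold, list length, merging, overlap and start window.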

Additional observations from a re-analysis of the deposited data

How the results depend on the processing

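Of 40 recomputed pooled values that a setting could change, 24 stayed within the interval of the reported one, 15 moved outside it and 1 reversed. Those that stayed include the ratios with 1 gene left out at a time. Strong peaks alone and equal list length moved every pooled value that they could change. With the hypoxia list limited to the length of the normoxia list, peak numbers are equal over the genome by construction. The ratio in the windows was then 0.93 (105 hypoxia and 113 normoxia peaks). The hypoxia share overlapping was 54.3%, the normoxia share 48.7% and the median hypoxia width 409 bp, where fewer weak hypoxia peaks enter by construction. With strong peaks alone, the ratio was 1.81 (1.10 to 3.04), against 1.63 for strong peaks over the genome. The share overlapping a strong peak of the other list was 48.9% in hypoxia and 80.8% in normoxia. These shares are not those given above for overlap with a peak of any strength. The median width was 542 bp in hypoxia and 1025 bp in normoxia. Counting a peak within 1000 bp as shared gave 30.4% in hypoxia and 77.9% in normoxia. Merging peaks within 1000 bp gave a median width of 318.5 bp in hypoxia and 420 bp in normoxia. Leaving out CDH4 and CDH13, added after the data were seen, gave a ratio of 1.52, a hypoxia share of 47.6% and a hypoxia width of 325.5 bp, while leaving out 1 gene at a time gave ratios of 2.35 to 3.07. The cause of these shifts was not tested. With no flank CDH2 had 8 hypoxia and 11 normoxia peaks, and with 50000 bp it had 16 hypoxia and 15 normoxia peaks. CTNNB1 had 2 in each list with no flank, and 10 hypoxia and 7 normoxia peaks with 50000 bp. Leaving out peaks of q above 0.05 tested nothing, since the windows held 0 such peaks. Of 70 values for single genes and gene starts that a setting could change, 46 stayed within 1.5 times. No paired analysis was possible because each condition had 1 library.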
